A study of Homo sapiens with 2 samples.

Results

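TFAP2A encodes AP-2 alpha, a transcription factor of surface ectoderm, amnion and trophectoderm that binds a palindromic GC-rich motif. In human embryonic stem cells exposed to BMP4, phosphorylated SMAD1, SMAD5 and SMAD9 switch on ID genes, GATA factors and TFAP2 factors, and the pluripotency gene SOX2 is shut down. HAND1 and ISL1 are regulators of extraembryonic-like cells, while the paper lists HAND1 with mesoderm genes and ISL1 with lateral mesoderm genes. Cells holding TFAP2A without detected HAND1 or ISL1 transcripts were therefore examined here as a class of their own.

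The TFAP2A cells without HAND1 or ISL1, called members below, were chosen by their measured transcripts. A member had at least 0.5 TFAP2A unique molecular identifiers (UMIs, single captured RNA molecules) per 10000 UMIs, 0 UMIs of HAND1 and of ISL1, and under 1 per 10000 both for the sum of the streak genes MIXL1, EOMES and TBXT and for the sum of the organizer genes CER1 and GSC. Of 10023 deposited cells, 6211 had at most 7500 detected genes, at most 25% mitochondrial UMIs and at least 10000 UMIs, and 430 of these were members. Levels of the 8 genes of this choice describe it and are no finding, and since every other gene was measured in the same cells, all differences between members and other cells are descriptions without a test.

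The study treated human H1 embryonic stem cells, an established line, with 50 ng/ml BMP4 in mTeSR1 medium for 48 h and profiled single cells by droplet sequencing. The library labelled WT came from unmodified H1 cells, and 55 of its 2173 kept cells were members. The library labelled GATA3 KO came from KO-GATA3-06, 1 clone of an H1 line that carries a doxycycline-inducible SpCas9 cassette at AAVS1 and had received guide RNAs against GATA3, and 375 of its 4038 kept cells were members. For this clone the paper reports a frameshift in both GATA3 alleles and no GATA3 by immunofluorescence after BMP4. One protocol text of the WT library gives another duration of BMP4, while its title and its duration field both give 48 h. With 1 library per group, clone, cassette, genotype and library cannot be told apart, no test between groups exists, and every interval given is a 95% interval that covers counting error only. The libraries are called the WT-labelled and the KO-labelled library below.

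GATA3, the targeted gene, does not check the labels, because its transcript was counted in both libraries and counts at the 3′ end need not show a frameshift. WT-labelled members held 18.8 GATA3 counts per 1000000 summed UMIs (CPM, interval 13.3 to 25.8) and those of the KO-labelled library 22.9 CPM (20.6 to 25.5). After every cell was thinned to 10000 UMIs, a GATA3 UMI was found in 9 of 55 members (16.4%, 7.77 to 28.8) of the former and in 60 of 375 (16.0%, 12.4 to 20.1) of the latter. SOX2 cells are those with SOX2 of at least 0.5 per 10000, 0 UMIs of TFAP2A, HAND1 and ISL1 and the same limits on streak and organizer genes. They gave 1.61% and 0.603%, and TFAP2A cells with HAND1 or ISL1 gave 45.7% and 48.8%. Without thinning the members gave 41.8% and 40.8%, and the SOX2 cells 7.96% and 2.94%. GATA3 transcript was thus present above the SOX2-cell level in members of both libraries.

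The median member held 39651 UMIs, 5760 detected genes and 10.9% mitochondrial UMIs in the WT-labelled library, against 47263.5 UMIs, 6370 genes and 11.4% in its other kept cells. In the KO-labelled library the medians were 44144 UMIs, 6284 genes and 9.97%, against 44940 UMIs, 6394 genes and 11.2%. The lower quartile of member UMIs was 19028.5 in the WT-labelled library and 30277.5 in the other, so the WT members include more shallow cells. In shallow cells 1 molecule of TFAP2A is enough to pass, and 13 of 55 (23.6%) and 37 of 375 (9.87%) members had only 1. TFAP2A cells with HAND1 or ISL1 had median UMIs of 44926.5 and 46658, with lower quartiles of 34236.5 and 37092. Transcripts of HAND1 and ISL1 can be missed, more so in shallow cells, so some members may hold them undetected. The libraries share 8 cell barcodes, and 0 of them belong to a member.

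Members made up 2.53% of kept cells (1.91 to 3.28) in the WT-labelled library and 9.29% (8.41 to 10.2) in the KO-labelled library, a difference of 6.76 percentage points (5.60 to 7.88). The difference rose and fell over the steps of the choice. Any TFAP2A UMI was found in 29.2% and 30.9% of kept cells, with a difference of 1.76 points whose interval runs from -0.67 to 4.15. The TFAP2A minimum was met by 225 cells (10.4%) and 740 cells (18.3%), which is 7.97 points apart. Of all kept cells, 115 (5.29%) and 401 (9.93%) also had no UMI of HAND1 and ISL1, and the difference fell to 4.64 points.

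The limits on streak and organizer genes then removed 60 cells of the WT-labelled library and 26 of the KO-labelled library. Without those limits the difference was 4.64 points (3.27 to 5.96), a choice made after seeing the data. Among cells of 40000 to 60000 UMIs, 2.07% and 7.83% were members. Among the cells above 7500 detected genes, which were not kept, 14 of 1012 (1.38%) and 103 of 1265 (8.14%) met the same gene limits. TFAP2A cells with HAND1 or ISL1 made up 4.23% (92 cells) and 8.22% (332 cells) of kept cells. Members numbered fewer than these in the WT-labelled library and more in the KO-labelled library.

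**Figure D1:**
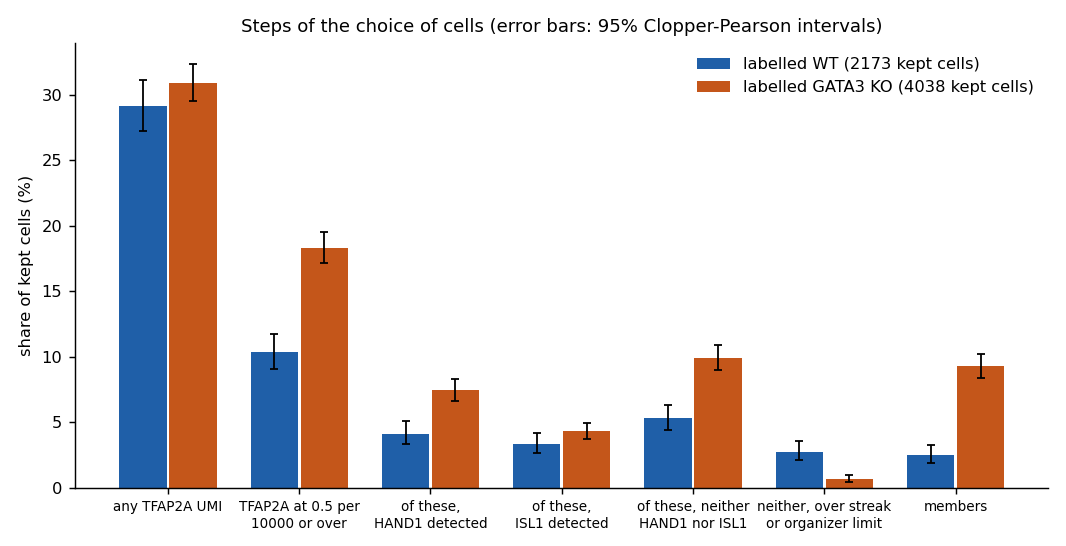
Share of kept cells (%) that passed each step of the choice in the WT-labelled library (blue) and the KO-labelled library (orange), with 95% Clopper-Pearson intervals. Shares with any TFAP2A UMI lie at 29.2% and 30.9%, whereas members lie at 2.53% and 9.29%.

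The label of these cells rests on TFAP2A, SPP1, PCAT14, NR2F2 and BMP4, and 3 of the 4 markers outside the choice were well above other kept cells in both libraries. TFAP2A itself lies at chr6:10393186-10419659 on the minus strand of GRCh38. Its median level in members was 0.724 per 10000 in the WT-labelled library (lowest 0.503, highest 2.11) and 1.02 per 10000 in the KO-labelled library (0.502 to 5.33). TFAP2A cells with HAND1 or ISL1 had medians of 1.21 and 2.17 per 10000.

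PCAT14, a long non-coding RNA at chr22:23536881-23547797, stood at 407 CPM (379 to 435) in WT-labelled members, against 110 CPM in other kept cells. KO-labelled members held 256 CPM (248 to 264) against 64.2 CPM. The log2 ratios of members to other kept cells were 1.88 and 1.98. At 10000 UMIs, PCAT14 was seen in 42 of 55 (76.4%) and 249 of 375 (66.4%) members, and in 16.3% and 12.1% of SOX2 cells, whose median depths were 46853 and 43980 UMIs. Without thinning the members gave 85.5% and 79.2%. Of the 4 markers outside the choice, PCAT14 was detected in the largest share of members in both libraries.

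SPP1, which encodes the secreted phosphoprotein osteopontin at chr4:87975667-87983532, stood at 139 CPM (123 to 156) against 28.5 CPM in the WT-labelled library. The KO-labelled values were 157 CPM (150 to 163) against 42.1 CPM, and the log2 ratios were 2.25 and 1.87. SPP1 was seen in 47.3% and 43.7% of members at 10000 UMIs, against 8.88% and 8.78% of SOX2 cells, and unthinned in 72.7% and 69.6% of members. It was concentrated in few cells: the median member had 0.621 and 0.423 per 10000 and the highest 18.6 and 20.2 per 10000. Without the SPP1 UMIs of the highest member the log2 ratios were 1.75 and 1.80.

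BMP4, the ligand at chr14:53949736-53958761 that was also added to the medium, stood at 62.8 CPM (52.4 to 74.7) in WT-labelled members, against 26.6 CPM in other kept cells. Among KO-labelled cells it stood at 183 CPM (176 to 189) against 52.9 CPM, with log2 ratios of 1.21 and 1.77. Without the BMP4 UMIs of the member holding most of them the first was 0.98. A BMP4 UMI was seen at 10000 UMIs in 20 of 55 (36.4%) and 210 of 375 (56.0%) members and in 9.34% and 9.46% of SOX2 cells, and unthinned in 67.3% and 66.4% of members. NR2F2, a COUP-TF nuclear receptor at chr15:96325938-96340263, went against the label in the WT-labelled library, where only 2 of 55 members held a UMI and the level was 1.48 CPM. KO-labelled members held 11.6 CPM, with UMIs in 80 of 375 members. NR2F2 was thus close to absent from WT members, and at 10000 UMIs it was seen in 1 of 55 and 33 of 375 members, against 0 of 867 SOX2 cells (which allows up to 0.346%) and 0.415% of 2653.

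Against other kept cells of the same library, 45 of 5195 genes tested (0.866%) were at least 2-fold higher and 13 (0.25%) at least 2-fold lower in WT-labelled members. The test here is a fold limit over genes of at least 20 CPM on the higher side, with 1 CPM added, and not a significance test. Among KO-labelled cells, 53 of 5355 genes (0.99%) were at least 2-fold higher and 9 (0.168%) at least 2-fold lower. Of 4803 genes tested in both libraries, 23 were at least 2-fold higher in both, 0 at least 2-fold lower in both and 0 in opposite directions. All 36 genes 2-fold higher in the WT-labelled library and tested in both were higher at all in the KO-labelled library, and 39 of 40 such genes of the KO-labelled library were higher at all in the WT-labelled library. Of the genes 2-fold lower and tested in both, 4 of 6 from the WT-labelled library and 3 of 3 from the KO-labelled library were lower at all in the other.

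Summed over members, HPGD, CLDN10 and ACTC1 were at least 2-fold higher than in other kept cells of both libraries. HPGD, which breaks down prostaglandins, stood at 908 against 208 CPM in the WT-labelled library and at 301 against 98.1 CPM in the KO-labelled library. CLDN10, a tight junction claudin, stood at 1306 against 289 CPM and at 955 against 392 CPM. ACTC1, the cardiac alpha actin, stood at 428 against 115 CPM and at 875 against 383 CPM. These 3 had log2 ratios of 2.12, 2.17 and 1.89 in the WT-labelled library and 1.61, 1.28 and 1.19 in the other. For ACTC1 the WT-labelled ratio fell to 1.32 without the ACTC1 UMIs of its highest member.

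AMER2, WLS and PRTG were likewise at least 2-fold higher in both. AMER2, a membrane partner of APC in WNT signalling, stood at 27.2 against 4.81 CPM and at 30.5 against 9.71 CPM. WLS, the carrier that WNT ligands need for secretion, stood at 124 against 54.5 CPM and at 75.3 against 28.7 CPM. PRTG, a cell-surface protein of the immunoglobulin family, stood at 39.6 against 16.2 CPM and at 55.5 against 15.0 CPM. TFAP2A cells with HAND1 or ISL1 held more of each, with AMER2 at 60.2 and 75.7 CPM and WLS at 230 and 233 CPM. Their PRTG stood at 102 and 76.8 CPM. SGK1, a kinase, LHFPL6, a tetraspan protein, and FAM20A, a secretory-pathway pseudokinase, had log2 ratios from 1.21 to 1.47 across both libraries. When members were limited to cells with 0 UMIs of all 5 streak and organizer genes, PRTG and WLS fell to log2 ratios of 0.20 and 0.51 in the WT-labelled library.

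SOX2, TDGF1 and USP44 were among the lower named genes. SOX2, the pluripotency factor, stood at 86.1 against 151 CPM in the WT-labelled library and at 201 against 408 CPM in the KO-labelled library, with log2 ratios of -0.80 and -1.02. TDGF1, the co-receptor of NODAL, stood at 249 against 445 CPM and at 177 against 343 CPM, and it overlaps another gene on its strand. USP44, a deubiquitinase, stood at 64.8 against 105 CPM and at 84.0 against 166 CPM. With members limited to cells without streak and organizer UMIs, SOX2, FGD4 and USP44 moved to log2 ratios of 0.02, 0.06 and 0.14 in the WT-labelled library, so their lower level there was not seen under that limit.

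AK4, a mitochondrial adenylate kinase, stood at 24.2 against 53.8 CPM and at 23.0 against 47.0 CPM. MT1X, a metallothionein with near-identical relatives whose reads may be shared, stood at 46.0 against 89.0 CPM in the WT-labelled library and at 7.58 CPM in KO-labelled members, with log2 ratios of -0.94 and -1.60. LINC01356, FOXD3-AS1, TMEM158, ERBB2, FZD5, GAP43 and FGD4 completed the named lower genes, with log2 ratios between -1.31 and -0.64 in the 2 libraries.

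**Figure D2:**
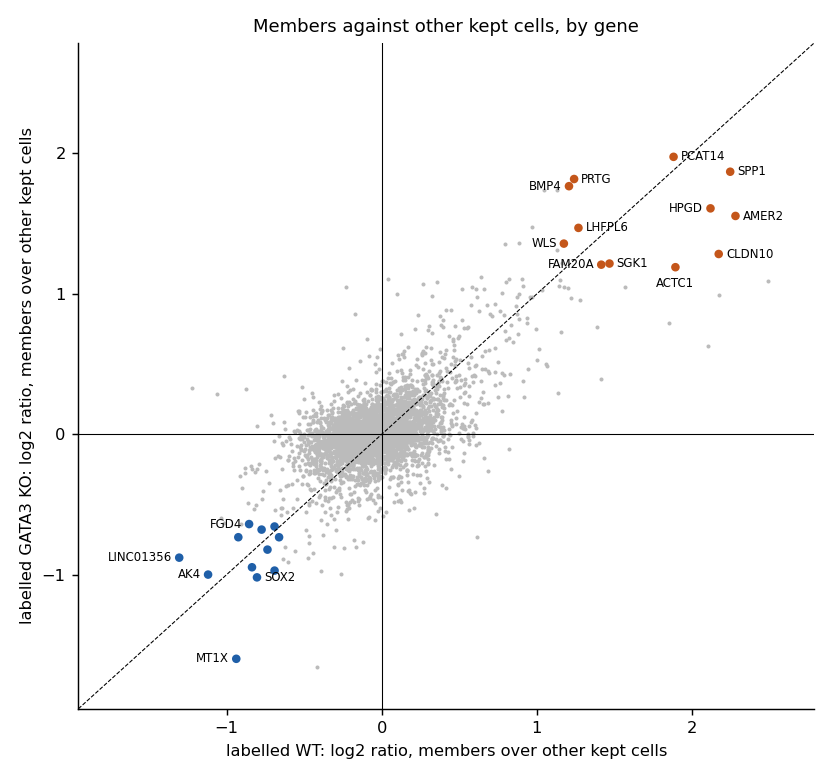
Each point is a gene of at least 20 CPM in both libraries, with its log2 ratio of members over other kept cells in the WT-labelled library (x axis) and GATA3 KO (y axis), and the dashed line marks equal ratios. The 12 higher named genes (orange) lie above 1 on both axes, and the 12 lower named genes (blue) lie below 0 on both.

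The promoters of named genes were searched for the TFAP2 motif because members were chosen by TFAP2A. The motif GCCNNNGGC reads the same on both strands, was the only motif searched, and was sought in the 300 bases around each RefSeq start site (250 before, 50 after; GRCh38.p14). It was found in 4 of 9 higher and 5 of 10 lower named genes with a promoter entry, and in 8146 of 35116 promoters in all (23.2%). The upstream stretches below are 120 bases long, written 5′ to 3′ on the gene's strand, with the motif in capitals. They show the motif in 3 higher genes and in SOX2, a lower gene.

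HPGD lies on the minus strand (chr4:174522619-174522738), PRTG on the minus strand (chr15:55743193-55743312), ACTC1 on the minus strand (chr15:34795600-34795719) and SOX2 on the plus strand (chr3:181711735-181711854).
HPGD: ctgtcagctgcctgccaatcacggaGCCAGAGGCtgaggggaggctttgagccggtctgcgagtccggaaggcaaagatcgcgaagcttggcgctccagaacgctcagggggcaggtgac
PRTG: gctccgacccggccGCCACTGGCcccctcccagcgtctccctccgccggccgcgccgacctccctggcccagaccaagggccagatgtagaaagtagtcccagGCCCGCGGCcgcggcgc
ACTC1: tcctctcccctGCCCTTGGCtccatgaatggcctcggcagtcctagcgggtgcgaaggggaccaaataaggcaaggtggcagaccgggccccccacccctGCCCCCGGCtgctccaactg
SOX2: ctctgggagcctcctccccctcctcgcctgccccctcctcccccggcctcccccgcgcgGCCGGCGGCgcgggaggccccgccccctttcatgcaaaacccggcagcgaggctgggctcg

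HPGD and SOX2 hold 1 motif each, starting 225 and 131 bases before the start site. PRTG holds motifs at 146 and 57 bases and ACTC1 at 159 and 70 bases before it. The windows of TFAP2A, SPP1, CLDN10 and NR2F2 hold none, which says only that these letters are not in this window. Both groups of named genes thus held the motif, and binding was not measured.

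Members lay between 2 neighbouring classes of the same library: the SOX2 cells, chosen by SOX2 itself, and TFAP2A cells with HAND1 or ISL1. The position of a gene is 0% at its log2 level in SOX2 cells and 100% at its log2 level in HAND1 or ISL1 cells. Of 316 genes at least 2-fold higher in HAND1 or ISL1 cells than in SOX2 cells of the WT-labelled library, members lay between them for 295 (93.4%), with a median position of 59.7%. The KO-labelled count was 319 of 324 (98.5%), with a median of 59.5%. For genes at least 2-fold lower in HAND1 or ISL1 cells the medians were 38.8% of 275 genes and 37.9% of 247 genes. Members share the TFAP2A minimum with HAND1 or ISL1 cells, and the lack of HAND1 and ISL1 UMIs with SOX2 cells. The genes were picked by the difference between those classes, so a place between them was favoured by the choice and is a description. A sum over a mix of cells like either class would also lie between, which was not tested.

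PCAT14 and SPP1 lay closer to HAND1 or ISL1 cells, at 83.3% and 86.2% in the WT-labelled library and 90.9% and 87.1% in the other. HPGD lay at 83.5% and 77.4%, CLDN10 at 74.8% and 69.4%, and BMP4 at 56.5% and 78.6%. The keratins KRT8 and KRT18 of simple epithelium, which have many pseudogenes, lay at 54.2% to 62.6% in both libraries. GATA3 lay at 52.4% and 67.3%. Among falling genes, the telomere protein gene TERF1 at 43.6% and 42.5%, and the DNA methyltransferase gene DNMT3B at 47.6% and 45.6%. NANOG differed between the libraries, at 36.4% in the WT-labelled library and at -7.34% in the KO-labelled library, where members held 58.7 CPM and SOX2 cells 54.4 CPM.

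**Figure D3:**
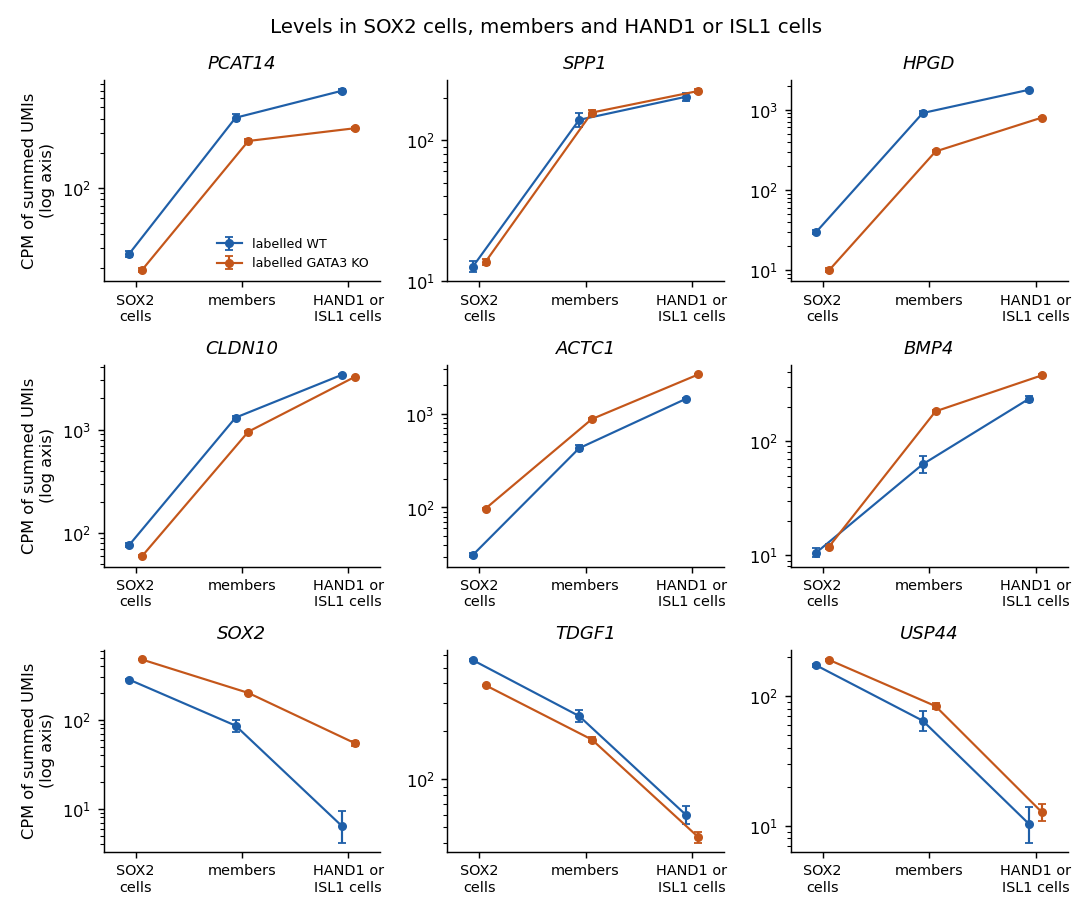
Levels (CPM of summed UMIs, log axes) of 9 genes in SOX2 cells, members and HAND1 or ISL1 cells of the WT-labelled library (blue) and the KO-labelled library (orange), with exact 95% Poisson intervals. The 6 genes of the upper rows rise over the 3 classes, and TDGF1 and USP44 fall, while SOX2 was a gene of the choice of SOX2 cells.

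Genes of BMP signalling were higher in members than in other kept cells. Of the 27 genes of BMP ligands, receptors and targets, 11 were tested in the WT-labelled library, with 9 higher and 3 at least 2-fold higher, against 0.866% of all genes. In the KO-labelled library 11 of 12 were higher and 6 at least 2-fold higher, against 0.99% of all genes. The median log2 ratios were 0.88 and 1.03, against -0.04 and 0.00 over all genes tested. This list, like the others, was drawn up with earlier results known.

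The ID genes, direct BMP targets that block basic helix-loop-helix factors, were higher in members of both libraries. ID1 stood at 855 CPM in WT-labelled members, with 341 CPM in SOX2 cells and 970 CPM in HAND1 or ISL1 cells. The same 3 KO-labelled levels were 1982, 667 and 2491 CPM. ID3 stood at 1708, 595 and 1539 CPM and at 1533, 511 and 1751 CPM, so members reached the level of HAND1 or ISL1 cells in the WT-labelled library and came close to it in the other. ID4 had log2 ratios of 1.16 and 1.22 over other kept cells. BAMBI, a pseudoreceptor that dampens BMP signalling, was at 202 CPM in members of both libraries, with log2 ratios of 0.88 and 1.36. The receptor genes BMPR1A and ACVR2B and the effector SMAD5 had log2 ratios between -0.26 and 0.30.

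Regulators of amnion and trophectoderm were detected in a minority of members. At 10000 UMIs GATA2 was seen in 12.7% and 13.9% of members, TFAP2C in 16.4% and 17.6%, TBX3 in 12.7% and 15.7%, and CDX2 in 3.64% and 3.73%. The SOX2 cells gave 0.346% and 1.09% for GATA2, 7.38% and 4.15% for TFAP2C, 1.38% and 0.339% for TBX3, and 0.231% and 0.302% for CDX2. Without thinning, members gave 18.2% and 43.7% for GATA2, 41.8% and 44.3% for TFAP2C, 29.1% and 33.9% for TBX3, and 7.27% and 13.3% for CDX2. MSX2, a homeobox target of BMP, was seen in more members than these, in 61.8% and 54.4% of members against 8.77% and 4.71% of SOX2 cells. DLX5, a homeobox gene of surface ectoderm, was seen in 3.64% of WT-labelled members and in 17.3% of KO-labelled members, or 23.6% and 36.5% unthinned, against 0 of 867 (which allows up to 0.346%) and 0.151% of SOX2 cells. At 10000 UMIs HAND1 or ISL1 cells gave 72.8% and 82.2% for MSX2 and 26.1% and 51.2% for DLX5. They gave 10.9% and 31.9% for GATA2 and 42.4% and 35.5% for TFAP2C. TBX3 was seen in 31.5% and 50.0% of them, and CDX2 in 12.0% and 12.35%. All but WT-labelled GATA2 were thus seen in a larger share of these cells than of members. Of 19 surface ectoderm and neural plate border genes, 9 and 4 were at 0 in members, and 1 and 2 passed the 20 CPM limit.

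Of 14 later amnion genes, 4 passed the level limit, and all 4 were at least 2-fold higher in the WT-labelled library while 2 were so in the KO-labelled library, against 0.866% and 0.99% of all genes. These were CLDN10, HPGD, POSTN, a secreted matrix protein, and AHNAK, a large scaffold protein. CLDN10 and HPGD were at least 2-fold higher in both, and POSTN and AHNAK had log2 ratios of 0.99 and 0.73 in the KO-labelled library. POSTN stood at 60.8 against 12.7 CPM and at 46.2 against 22.8 CPM, and AHNAK at 34.1 against 14.8 CPM and at 36.7 against 21.8 CPM. GABRP, a later amnion marker, stood at 0.989 and 1.03 CPM in members, and VTCN1 at 0 and 0.0643 CPM. Of 16 later trophoblast genes, 12 and 9 were at 0 in members, and the summed levels of the list were 20.3 and 22.0 CPM against 18.3 and 26.2 CPM in SOX2 cells. The 14 markers of endothelium, blood, neural crest and neurons summed to 3.96 and 5.46 CPM, with 9 and 5 of them at 0.

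Of the 20 pluripotency genes, most of those tested were lower in members. Of 13 tested in the WT-labelled library 12 were lower and 0 at least 2-fold lower, against 0.25% of all genes, and of 16 in the KO-labelled library 12 were lower and 2 at least 2-fold lower, against 0.168%. The median log2 ratios were -0.48 and -0.37. POU5F1, the pluripotency factor OCT4, which has near-identical pseudogenes, stood at 991 against 914 CPM and at 1513 against 1474 CPM. TERF1 stood at 582 against 884 CPM and at 592 against 1115 CPM, and DNMT3B at 155 against 217 CPM and at 145 against 268 CPM. TERF1, DNMT3B and SOX2 were thus lower in members, and POU5F1 had log2 ratios of 0.12 and 0.04.

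The early neural genes SFRP1 and OTX2 were at least 2-fold lower in KO-labelled members, where SFRP1, a secreted WNT antagonist, stood at 176 against 556 CPM and OTX2, a forebrain and epiblast factor, at 12.2 against 30.6 CPM. SFRP1 stood at 101 against 135 CPM in the WT-labelled library. Of 17 G2/M genes, 15 of 16 tested were lower in the WT-labelled library and 13 of 17 in the KO-labelled library, with medians of -0.24 and -0.11 and 0 past 2-fold. The S-phase list had medians of 0.09 and 0.11, beside -0.04 and 0.00 over all genes tested.

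Summed over all members, the signalling genes NODAL and WNT3 were higher than in both neighbouring classes. NODAL, a ligand of the streak, stood at 86.1 CPM in WT-labelled members, with 51.5 CPM in SOX2 cells and 36.1 CPM in HAND1 or ISL1 cells. The KO-labelled levels were 27.3, 9.19 and 8.11 CPM. The WNT ligand gene WNT3 stood at 25.7, 7.61 and 11.1 CPM and at 9.51, 2.90 and 3.57 CPM. The choice admits members with some UMIs of the 5 streak and organizer genes. NODAL stood at 116 CPM in the 32 WT-labelled members with such UMIs and at 26.6 CPM in the 23 without. KO-labelled NODAL stood at 59.2 CPM in 108 members with such UMIs and at 11.0 CPM in 267 without. WNT3 stood at 35.0 and 7.39 CPM and at 14.7 and 6.89 CPM in the same sets. The sets differ in depth, with median UMIs of 43504 and 22022 in the WT-labelled library and of 50360 and 40158 in the other. WT-labelled members without such UMIs were thus not higher in NODAL or WNT3 than either neighbouring class. KO-labelled members without them stayed higher than both. The neighbouring classes were not split in this way.

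Members were not uniform. At 10000 UMIs, SOX2 was detected in 20 of 55 members (36.4%, 23.8 to 50.4) of the WT-labelled library and in 251 of 375 (66.9%, 61.9 to 71.7) of the KO-labelled library. Unthinned shares were 49.1% and 85.3%, and SOX2 cells and HAND1 or ISL1 cells gave 90.9% and 5.43% in the former and 97.6% and 27.1% in the latter, SOX2 cells having been chosen by this gene. WT-labelled members with and without SOX2 had median UMIs of 40433.5 and 38603. KO-labelled members with and without SOX2 had median UMIs of 41205 and 46430.

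CLDN10 stood at 286 CPM in members with SOX2 and at 1911 CPM in members without in the WT-labelled library, and at 366 and 2050.4 CPM in the KO-labelled library. HPGD stood at 348 and 1240.3 CPM and at 144 and 594 CPM, and the matrix gene FN1, fibronectin, at 126 and 419 CPM and at 141 and 508 CPM. SFRP1 ran the other way, at 258 and 7.88 CPM and at 246 and 44.7 CPM. TERF1 likewise stood at 1181 and 226 CPM and at 772 and 258 CPM. POU5F1 and ID3 changed little, POU5F1 at 1021 and 974 CPM and at 1497 and 1544 CPM, and ID3 at 1751 and 1682 CPM and at 1453 and 1681 CPM. Members with and without SOX2 thus differed in CLDN10, HPGD, FN1, SFRP1 and TERF1 in both libraries.

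**Figure D4:**
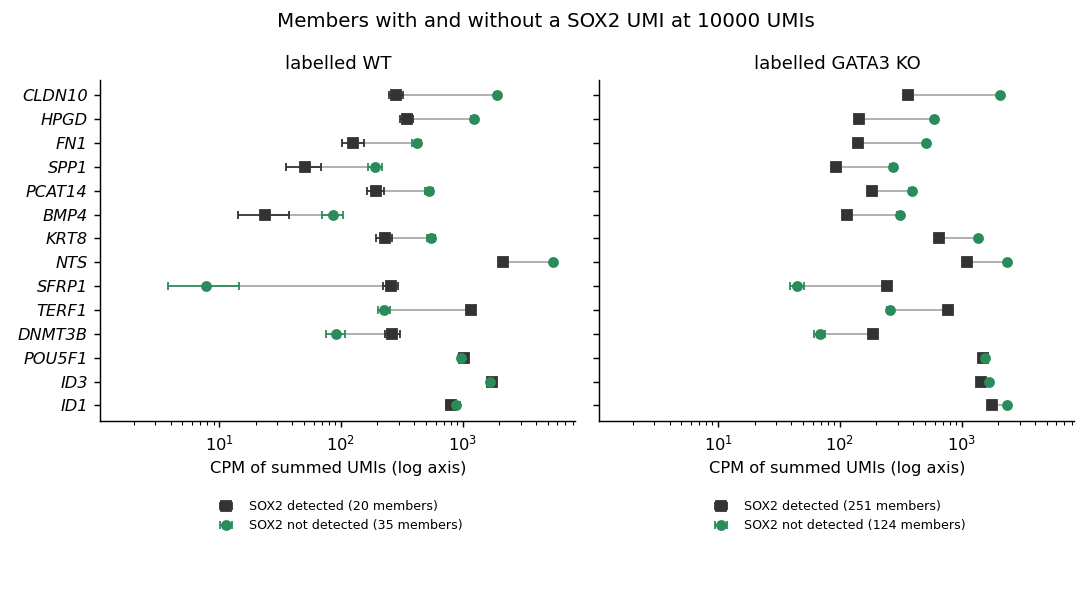
Levels (CPM of summed UMIs, log axis) of 14 genes in members with (squares) and without (circles) a SOX2 UMI at 10000 UMIs, for each library, with exact 95% Poisson intervals. CLDN10 is at 286 and 1911 CPM in the WT-labelled library, whereas POU5F1 and ID3 nearly coincide.

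Per cell, the median CLDN10 level was 5.92 per 10000 (quartiles 0.957 and 31.1) in WT-labelled members and 1.75 per 10000 (0.666 and 12.7) in the KO-labelled library. SOX2 cells had medians of 0.654 and 0.499 per 10000, and HAND1 or ISL1 cells of 26.6 and 30.6 per 10000. The median HPGD level was 7.43 per 10000 in the WT-labelled library and 0.659 per 10000 in the other, with 11 of 55 and 124 of 375 members at 0. ID3 was more even, with a median of 15.4 per 10000 (10.2 and 20.1) and of 14.2 per 10000 (9.57 and 19.8).

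Members were also binned by TFAP2A, a gene of the choice, as a description. In the KO-labelled library, CLDN10 stood at 387, 1208, 1986 and 2173 CPM in the 186, 116, 65 and 8 members with TFAP2A of 0.5 to under 1, 1 to under 2, 2 to under 4, and 4 or more per 10000. The lowest bin was thus close to the 392 CPM of CLDN10 in other kept cells. FN1 stood at 143, 328, 471 and 802 CPM and TERF1 at 803, 444, 316 and 219 CPM in the same 4 bins. BMP4 stood at 107 CPM in the lowest bin and between 228 and 259 CPM in the other bins. In the WT-labelled library, CLDN10 stood at 796 CPM in 40 members of the lowest bin and at 2641 CPM in 12 members of the next, and 3 members of 2 to under 4 held 777 CPM at a median of 14647 UMIs. The WT-labelled bins of 12 and 3 members and the KO-labelled bin of 8 members hold under 20 cells each.

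At the TFAP2A limit, 11 WT-labelled members with 0.5 to under 0.6 per 10000 held 794 CPM of CLDN10, and 16 cells outside with 0.4 to under 0.5 per 10000 held 260 CPM. The 48 KO-labelled members just inside held 216 CPM and 65 cells just outside 257 CPM. PCAT14 stood at 311 CPM just inside and 181 CPM just outside in the former, and at 101 and 121 CPM in the latter. CLDN10 and PCAT14 were thus higher just inside the limit only in the smaller WT sets.

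Members with a GATA3 UMI at 10000 UMIs held more BMP4 and TBX3, a T-box factor of amnion and trophectoderm. In the KO-labelled library, BMP4 stood at 332 CPM in 60 members with GATA3 and at 156 CPM in 315 without, and TBX3 at 48.2 and 14.8 CPM. In the WT-labelled library, BMP4 stood at 152 CPM in 9 members with GATA3 and at 43.4 CPM in 46 without, and TBX3 at 24.8 and 7.84 CPM. SOX2 was lower in members with GATA3, at 105 and 218 CPM in the KO-labelled library and at 30.3 and 98.3 CPM in the WT-labelled library.

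Between the libraries, KO-labelled members held 202 of 5527 genes tested (3.65%) at least 2-fold higher and 100 (1.81%) at least 2-fold lower than WT-labelled members. The median log2 ratio of all genes was 0.09. SHB, a signalling adaptor, stood at 4.45 CPM (9 UMIs) in WT-labelled members and at 21.7 CPM in those of the KO-labelled library, which is 2.06 (1.25 to 2.92) as a log2 ratio. CDC42EP1, a CDC42 effector, stood at 8.41 and 33.4 CPM, or 1.87 as a log2 ratio. In other kept cells the same ratios were 0.60 for SHB and 0.80 for CDC42EP1. SHB overlaps AL138752.2 on its strand, and its ratio in members was 0.93 when the choice was made after thinning.

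The other higher named genes had log2 ratios between 1.55 and 1.80 in members and between 0.69 and 2.17 in other kept cells. THY1, a surface glycoprotein, stood at 53.9 and 189 CPM in members of the WT-labelled and KO-labelled library. MFGE8, a secreted lactadherin, stood at 77.7 and 258 CPM, and ADM, the peptide adrenomedullin, at 36.6 and 112 CPM. The log2 ratios of THY1, MFGE8 and ADM were 1.79, 1.72 and 1.59 in members and 1.54, 2.01 and 2.17 in other kept cells. DBNDD1, CDCP1, SERPING1, C19orf48, DUSP6, a phosphatase of ERK kinases, CA11 and THOC5 made up the rest, with 12 to 53 UMIs each in WT members, and THOC5 overlaps NIPSNAP1 on its strand.

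The lower named genes were lower in other kept cells of that library as well. PCDH10, a protocadherin, stood at 66.8 and 3.79 CPM in members, with log2 ratios of -3.82 in members and -4.15 in other kept cells. SERPINE2, a serine protease inhibitor, stood at 451 and 65.5 CPM, with ratios of -2.76 and -3.16. HAS2, a hyaluronan synthase, stood at 31.2 and 3.21 CPM, and the cytochrome gene CYP1B1, which overlaps RMDN2-AS1, at 31.7 and 1.93 CPM. In other kept cells their ratios were -3.28 and -3.36. The non-coding RNA genes AC131094.1, LINC00458, LINC01356 and AC064802.1 and the genes QPCT, TRDN and MT1X had log2 ratios from -4.66 to -2.45 in members. With members limited to cells with 0 UMIs of the 5 streak and organizer genes, SERPINE2 moved to -1.01, PCDH10 to -2.51, HAS2 to -2.33 and CYP1B1 to -2.22.

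SOX17, an endoderm and germ-cell factor, had the lowest ratio, -4.68, but 53 of its 60 UMIs in WT members came from 1 cell. KO-labelled members held 3 UMIs in 3 of 375 cells. Without the SOX17 UMIs of the highest cell of each library the ratio was -1.98. SOX17 was detected in 5 of 55 WT-labelled members, and 2 of these 5 also held TFAP2C.

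**Figure D5:**
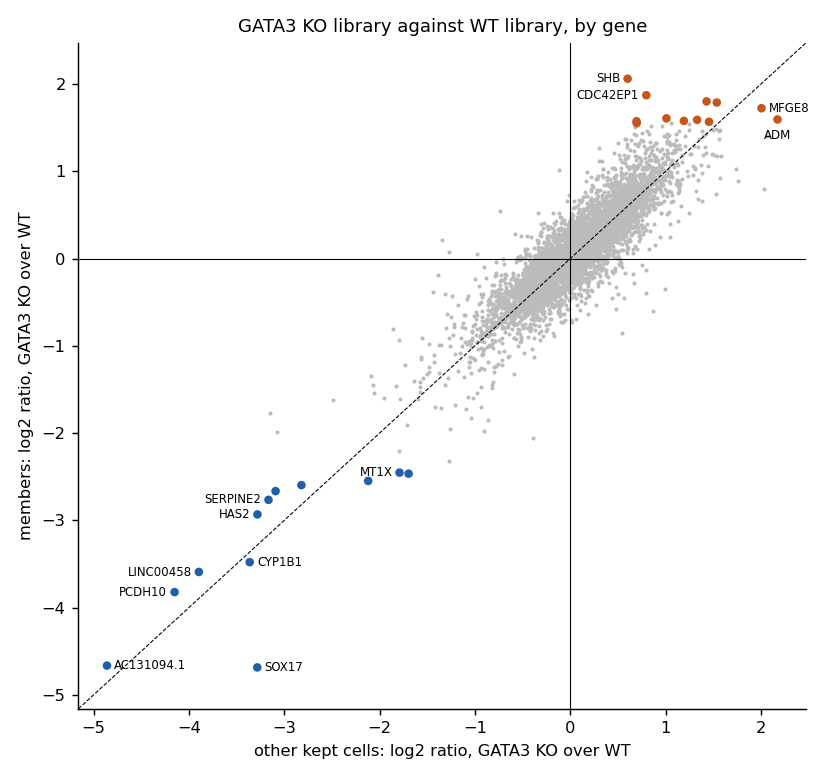
Each point is a gene of at least 20 CPM in members of either library, with its log2 ratio of GATA3 KO over WT in other kept cells (x axis) and in members (y axis), and the dashed line marks equal ratios. Named higher genes are orange and named lower genes blue, and SHB (0.60 and 2.06) and SOX17 (-3.28 and -4.68) lie away from the line.

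As SOX2 was detected in a larger share of KO-labelled members, levels were also compared within members with and without SOX2, a split added after seeing the data. CLDN10 stood at 1911 CPM in the WT-labelled library and at 2050.4 CPM in the KO-labelled library among members without SOX2, a log2 ratio of 0.10, against -0.45 over all members. BMP4 stayed higher in the KO-labelled library, with log2 ratios of 2.20 among members with SOX2 and 1.84 among those without, against 1.52 over all. KRT8 had a ratio of 1.30 among members without SOX2, and ID1 had ratios of 1.16 and 1.40. HPGD stayed lower, at -1.27 and -1.06, as did the neuropeptide gene NTS, at -0.94 and -1.21. Both were also lower outside members. HPGD had ratios of -1.08 in other kept cells, -1.15 in HAND1 or ISL1 cells and -1.50 in SOX2 cells. Median NTS was 3.04 and 0.733 per 10000 in WT-labelled and KO-labelled SOX2 cells, and 49.4 and 17.0 per 10000 in HAND1 or ISL1 cells. CLDN10 had a ratio of 0.36 among members with SOX2, so it was not lower in the KO-labelled library within either set, whereas HPGD and NTS were lower in both.

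Of 5 tested streak genes outside the choice, SP5, WNT3, NODAL and KDR were at least 2-fold lower in KO-labelled members and CDH2 was not, with a median log2 ratio of -1.47, against 1.81% of all genes at least 2-fold lower. SP5, a WNT target, stood at 25.2 and 6.68 CPM, and KDR, a receptor of vascular endothelial growth factor, at 97.0 and 34.3 CPM. In other kept cells the ratios were -3.15 for SP5 and -0.94 for KDR. UMIs of the 5 streak and organizer genes of the choice were held by 32 of 55 WT-labelled and 108 of 375 KO-labelled members. Among members with 0 such UMIs, SP5 stood at 4.43 and 8.05 CPM, WNT3 at 7.39 and 6.89 CPM, KDR at 50.2 and 32.2 CPM, and NODAL at 26.6 and 11.0 CPM, so under that limit NODAL kept a 2-fold lower level while SP5, WNT3 and KDR did not. Of 12 BMP genes tested 2 were at least 2-fold higher, BMP4 and ID1, against 3.65% of all genes. The log2 ratio of BMP4 was 1.52 in members and 0.96 in other kept cells. Median ID1 was 8.13 and 18.8 per 10000 in WT-labelled and KO-labelled members. It was also higher in KO-labelled SOX2 cells (2.88 and 5.31) and HAND1 or ISL1 cells (9.12 and 24.1), so the higher ID1 was not particular to members.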

How the data were processed

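The data are droplet counts of 2 single-cell libraries, 1 per group. Per the file headers of the deposited matrices, the authors counted UMIs per gene with Cell Ranger 3.0.2, and the labels name GRCh38. The deposited values are whole-number counts of 33538 features, not normalized, and the reads were not used here. Kept cells had at most 7500 detected genes, at most 25% mitochondrial UMIs and at least 10000 UMIs. Depth per kept cell ran from 10002 to 83658 UMIs. Members totalled 2021583 UMIs in the WT-labelled library and 15556296 in the KO-labelled library, which limits the precision of the former. Members and gene lists were chosen with earlier results of these data known.

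Counts were summed over the cells of a class and divided by the summed UMIs (CPM). Fold changes are log2 ratios after adding 1 CPM, over genes of at least 20 CPM on the higher side, and 2-fold was the limit for a call. Named genes were the 12 highest and 12 lowest by the weaker ratio of both libraries, and the 12 highest and 12 lowest between libraries, with the same direction in the mean of per-cell CPM, leaving out mitochondrial genes, Y-linked genes, the X-inactivation transcript and the genes of the choice. Intervals are exact Poisson (levels), exact binomial (ratios) or Clopper-Pearson (shares) intervals of 95%, and the interval of a difference of shares combines both Clopper-Pearson intervals. A share of 0 allows up to 3 cells of those counted. Cells were thinned to 10000 UMIs (seed 7) for shares of cells with a UMI. Doublets were not removed. Scrublet in scanpy 1.11.5 called 1 and 2 cells, too few to have worked, and removal of the 116 and 310 highest scores was an alternative. Whether the deposited matrices had doublets removed is not given in the sources used here. The TMM scaling came from edgeR 4.0.16 in R 4.3.3, and other steps used Python 3.11.15, numpy 2.4.6, scipy 1.17.1 and pandas 2.3.3. The ratio was tested on simulated counts with known changes. Gene positions came from GENCODE annotation of GRCh38 (33113 features placed), and promoters from RefSeq on GRCh38.p14 (19 of 24 named genes matched).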

Additional observations from a re-analysis of the deposited data

How the results depend on the processing

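The share of members was higher in the KO-labelled library under each alternative run, and its size followed the choice of cells. With the choice made after thinning to 10000 UMIs, 3.73% and 11.6% of WT-labelled and KO-labelled kept cells were members, 8 genes were at least 2-fold lower in WT-labelled members than in other kept cells, and 81 were at least 2-fold higher in KO-labelled members. With TFAP2A of at least 1 per 10000 the shares were 0.69% and 4.68%, 3.99 points apart. The genes at least 2-fold higher and lower in members then numbered 149 and 118 (WT-labelled) and 108 and 44 (KO-labelled), and those between libraries 387 and 176. At least 2 UMIs of TFAP2A gave 8.37% in the KO-labelled library. With 0 UMIs of the 5 streak and organizer genes the shares were 1.06% and 6.61%, 5.55 points apart, with 76 and 87 genes (WT-labelled), 30 and 4 (KO-labelled) and 360 higher between libraries. Of the alternatives chosen after seeing the data, no limit on streak and organizer genes gave 5.29% in the WT-labelled library and a difference of 4.64 points, and cells of 40000 to 60000 UMIs gave 7.83% in the KO-labelled library. Testing genes of at least 5 CPM gave 118 higher and 100 lower (WT-labelled), 100 and 33 (KO-labelled), and 482 and 249 (between libraries). Without a filter these were 223 and 387, 127 and 45, and 814 and 465, as more genes were tested. Among log2 ratios past 2-fold, SOX17 turned direction between libraries, to 0.13 with 0 UMIs of the 5 genes and to 0.14 in members with SOX2, a split added after seeing the data. The ratios of SPP1 (0.17) and GATA3 (0.27) between libraries, under 2-fold, also changed sign, to as low as -0.65 with 0 UMIs of the 5 genes and -0.33 with no upper limit on detected genes. So did FGD4, SOX2, USP44 and NR2F2 in WT-labelled members against other kept cells. Apart from the 2 reversed entries of SOX17, 821 log2 ratios under an alternative stayed inside the counting interval of the reported value and 207 did not. These counts include the sign changes under 2-fold. Between libraries, SHB and CA11 fell to 0.93 and 0.79 with the choice after thinning and DUSP6 to 0.81 with no upper limit on detected genes. The cause of these moves was not tested. With 1 library per group no replicate could be left out. No paired analysis was possible because each group is 1 library. The 55 WT-labelled members limit every comparison between libraries.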

Other observations

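Of 21 matrix and secreted genes, 13 were tested in the WT-labelled library, with 10 higher in members than in other kept cells and 2 at least 2-fold higher, SPP1 and FN1. In the KO-labelled library 9 of 12 were higher and 2 at least 2-fold higher, again SPP1 and FN1. Of all genes, 0.866% and 0.99% were at least 2-fold higher, and the median log2 ratios were 0.36 and 0.10 in the list and -0.04 and 0.00 over all genes. FN1, fibronectin, stood at 310 against 104 CPM and at 269 against 129 CPM.

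Of 15 keratin and junction genes of simple epithelium, 12 were tested, with 10 higher in WT-labelled members and 8 higher in KO-labelled members, and 0 past 2-fold in either. The median log2 ratios were 0.56 and 0.31, beside the same -0.04 and 0.00 over all genes. KRT8, whose pseudogenes make its counts uncertain, stood at 432 against 236 CPM and at 897 against 455 CPM.

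Of 19 dissociation and stress genes, 9 were tested in each library, with medians of -0.12 in the WT-labelled and 0.28 in the KO-labelled library and 1 gene at least 2-fold higher in each, against 0.866% and 0.99% of all genes. Of 4 COUP-TF and retinoid genes tested, 3 were lower in each library, with medians of -0.39 in both.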
